A study of Mus musculus with 6 samples.

Results

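Classical cadherins and protocadherins are calcium-dependent adhesion proteins by which neurons recognise and hold on to each other. The 45 genes described here were 14 cadherins, 10 protocadherins that lie outside the protocadherin gene cluster, and 21 single-exon beta protocadherins that lie inside it. They were chosen by name, and a locus of the deposited expression table was taken as a member where its position in mm10 overlapped the annotated span of the gene by at least 0.5 of the union of both. By this rule 23 of the 45 genes were found among the 32357 loci of the table, namely 13 of 14 cadherins, all 10 of the non-clustered protocadherins and 0 of 21 beta protocadherins. Of the 23, 21 had a mean level of at least 1 FPKM (fragments per kilobase of transcript, scaled to library size), and 12 of at least 10 FPKM.

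The cells were primary cortical neurons of Balb/c mouse embryos at E14.5, a background shared by every library, that had been nucleofected before plating with a plasmid encoding an shRNA and GFP. The control group received a non-silencing (NS) shRNA and comprised 2 libraries. The Neurod2 knockdown group comprised 4 libraries, 2 with shNeurod2-1 and 2 with shNeurod2-2, and Neurod2 encodes a basic helix-loop-helix transcription factor of excitatory neurons. RNA was taken at day 4 in vitro according to the sample labels (the study's methods give another day), from whole cultures with no sorting of transfected cells stated, and 50 bp single-end reads were sequenced. The table holds 1 level for each group, with both shRNAs pooled, so no spread between libraries, no test and no effect of a single shRNA could be derived, and the read depth is unknown. Whether the libraries of 1 group came from independent cultures is not stated in the sources.

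Neurod2, the targeted gene, was at 104.8 FPKM with the NS shRNA and at 60.3 FPKM in the knockdown, a log2 ratio of -0.80. Reln was at 11.7 FPKM with the NS shRNA and at 24.3 FPKM in the knockdown. All 8 listed markers of excitatory cortical neurons were found, the most abundant being Neurod6 at 274 and 290 FPKM, and none differed by over 1.5-fold. Markers of other cells were present as well. The glial genes Fabp7 (1057 and 1227 FPKM) and Olig1 (56.4 and 52.4 FPKM) were abundant, whereas the microglial genes found summed to 0.135 and 0.337 FPKM and the endothelial genes to 0.184 and 0.345 FPKM. Gfap, the astrocyte filament gene, was at 57.4 and 35.1 FPKM. Of the 7 astrocyte and radial glia markers with a mean of at least 1 FPKM, it alone differed by over 1.5-fold. Of these 7, 4 lay below 0 in log2 ratio and 3 above, with Slc1a3 at 87.5 and 90.4 FPKM and Aqp4 at 6.35 and 6.20 FPKM. The interneuron gene Sst was at 3.29 and 6.55 FPKM. Gad2, the only other interneuron gene with a readable mean of at least 1 FPKM, lay in the opposite direction, at 2.49 and 2.18 FPKM. Lhx6 (0.666 and 1.05 FPKM) and Slc32a1 (0.657 and 0.770 FPKM), with means under 1 FPKM, lay in the direction of Sst. Npy was found, but its levels could not be read. Of the 6 markers of Cajal-Retzius cells, all 3 with a mean of at least 1 FPKM were over 1.5-fold higher in the knockdown (Reln, Calb2 and Nhlh2). The 9 fibroblast and mural markers summed to 6.37 and 8.59 FPKM, and of these Col1a1 (0.125 and 0.975 FPKM), Col3a1 (0.171 and 0.765 FPKM), Acta2 (0.409 and 1.28 FPKM) and Postn (0.262 and 0.834 FPKM) were higher in the knockdown from levels under 1 FPKM. Dcn, at 1.55 and 1.56 FPKM, and Cspg4, at 1.97 and 1.498 FPKM, were not. The part of these differences in the cadherin levels was not tested, and in RNA from whole cultures fewer cells of a type and less RNA per cell cannot be told apart.

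In classical cadherins, 5 extracellular repeats bind calcium and the outermost repeat exchanges a strand with a cadherin on the neighbouring cell, while the cytoplasmic tail holds catenins that connect to actin. Type I and type II members differ in that strand interface and mostly bind their own type. Protocadherins lack the catenin-binding tail. The delta protocadherins are encoded at scattered positions and have conserved motifs in the tail, whereas the alpha, beta and gamma protocadherins are encoded in 1 tandem array whose alternative promoters give single neurons different combinations. In the developing cortex these families are known for their roles in neuronal migration, layer and area patterning, axon outgrowth and synapse formation.

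None of the 21 members with a mean of at least 1 FPKM differed by over 1.5-fold between the groups. Among all 12622 loci of that level, 2.09% were over 1.5-fold lower and 1.35% over 1.5-fold higher in the knockdown, so a count of 0 among 21 genes lies near the background. At a smaller threshold, a higher level more than 25% above the lower one, 1 member was lower in the knockdown, Pcdh1, and 0 were higher, beside 5.61% lower and 4.11% higher among all loci. The log2 ratios of the 21 members ran from -0.37 to 0.23 with a median of 0.02, and 10 lay below 0 and 11 above. For all loci the median was -0.03, and 58.4% lay below 0. The median size of the log2 ratio, regardless of sign, was 0.0934 for the members and 0.102 for all loci.

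**Figure D1:**
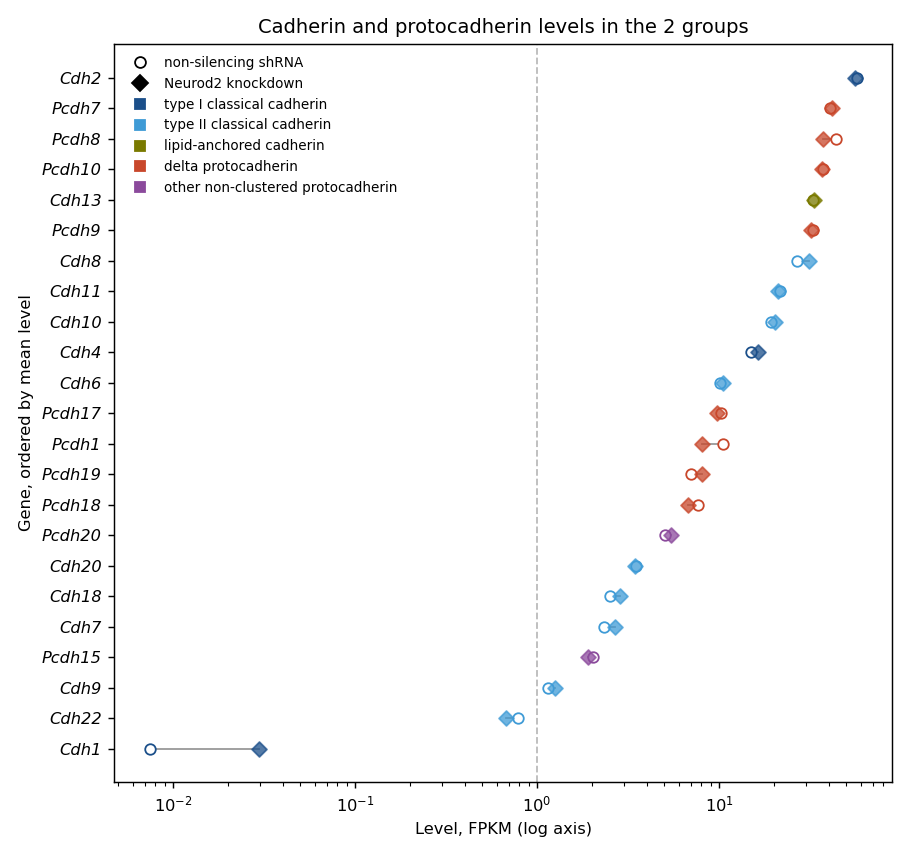
Level of each of the 23 matched genes (FPKM, horizontal log axis) with the non-silencing shRNA (open circles) and in the Neurod2 knockdown (filled diamonds), coloured by family, genes ordered by the mean of both levels, each point being 1 pooled group value without an error. The circles and diamonds nearly coincide for most genes, Pcdh1 shows the widest gap above the dashed line at 1 FPKM, and Cdh1 lies far to the left of that line in both groups.

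The levels spanned a wide range, and are ordered here by the mean of both groups. Cdh2 was the most abundant member, followed by the delta protocadherins Pcdh7, Pcdh8 and Pcdh10, by Cdh13 and by Pcdh9. Cdh8, Cdh11, Cdh10, Cdh4, Cdh6 and Pcdh17 came next, all with a mean of at least 10 FPKM. Cdh9, Cdh22 and Cdh1 were the lowest. Since FPKM is scaled to transcript length, these levels can be set side by side between genes, but without a spread between libraries neighbours in this order cannot be separated.

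Of the type I classical cadherins, Cdh2 encodes N-cadherin, the main cadherin of neuroepithelial junctions and of cortical neurons. It was at 57.3 FPKM with the NS shRNA and at 55.6 FPKM in the knockdown (log2 ratio -0.04). Cdh4, which encodes R-cadherin and can pair with N-cadherin, was at 15.0 and 16.3 FPKM (0.12). Cdh1 encodes E-cadherin, the cadherin of epithelia, and was close to 0 in both groups, at 0.00744 and 0.0296 FPKM, in a row the authors had marked as not tested, so no fold is drawn from it. The epithelial genes Krt8 and Krt18 were listed at 0 in both groups, Epcam was at 0.0879 and 0.160 FPKM, Ttr at 0.0326 and 0.0508 FPKM and Cldn1 at 0.846 and 0.997 FPKM. All 5 listed epithelial genes were under 1 FPKM in both groups.

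The type II cadherins are expressed in differing combinations across cortical areas, layers and nuclei of the brain. Of 10 listed, 9 were found and 8 had a mean of at least 1 FPKM, with a median log2 ratio of 0.09, of which 6 lay above 0 and 2 below. Cdh8, which marks subsets of cortical neurons and their synaptic partners, had the highest ratio of the 21 members with a mean of at least 1 FPKM, at 26.7 FPKM with the NS shRNA and 31.3 FPKM in the knockdown (0.23). Cdh8 lies at chr8:99024471-99416471 (GRCm38) (minus strand) and has 12 exons over 392 kb. Cdh11, known from mesenchyme as well as from brain, was at 21.5 and 21.2 FPKM (-0.02), a difference in the opposite direction and smaller. Cdh10 was at 19.4 and 20.2 FPKM (0.06) and Cdh6 at 10.1 and 10.5 FPKM (0.05).

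The remaining type II cadherins were found at low levels. Cdh7 was at 2.33 FPKM with the NS shRNA and 2.70 FPKM in the knockdown (0.21), and Cdh18 at 2.53 and 2.87 FPKM (0.18). Cdh20 was at 3.49 and 3.47 FPKM (-0.01) and Cdh9 at 1.15 and 1.252 FPKM (0.12). Cdh22 stayed under the minimum, at 0.788 and 0.677 FPKM (-0.22). The locus taken for Cdh9 overlapped the gene by only 0.613 of their union, the lowest of all members. Cdh6, Cdh9, Cdh10 and Cdh18 all lie on chromosome 15, and the 4 ratios were all above 0, from 0.05 to 0.18. Other chromosomes with several members of at least 1 FPKM differed. On chromosomes 3 and 18 all members lay below 0 (2 each), and on chromosome 14 3 lay below and 1 above. On chromosomes 1 and 8 members lay on both sides of 0. Over type I and type II together, 7 of 10 genes lay above 0, with a median of 0.09, beside a median of -0.03 over all loci.

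Cdh13 encodes T-cadherin, which is held in the membrane by a lipid anchor and has no cytoplasmic tail. It was at 33.0 FPKM with the NS shRNA and 33.4 FPKM in the knockdown (0.02). It was the fifth most abundant member, and its ratio was the median of the 21 genes.

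The delta protocadherins were, as a group, more abundant than the type II cadherins, with a median of 21.7 FPKM against 6.79 FPKM with the NS shRNA. All 8 members were found, with a median log2 ratio of -0.06, of which 6 lay below 0 and 2 above. The members of the delta-1 subgroup are Pcdh1, Pcdh7 and Pcdh9, whose tails, like that of the delta-1 gene Pcdh11x listed with the other superfamily genes (4.65 and 4.18 FPKM, -0.15), carry a motif that binds protein phosphatase 1. Pcdh1 had the lowest ratio of all 23 matched members, at 10.5 FPKM with the NS shRNA and 8.11 FPKM in the knockdown, 1.29-fold lower (-0.37). Pcdh1 lies at chr18:38185914-38212053 (GRCm38) (minus strand), with 3 exons over 26.14 kb, outside the protocadherin array of the same chromosome. Its locus overlapped the gene by 0.773 of the union and at least 1 of its cells had been restored from a spreadsheet time. Pcdh7 was at 40.5 and 41.7 FPKM (0.05) and Pcdh9 at 33.0 and 32.0 FPKM (-0.04), both close to 0 in ratio.

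The members of the delta-2 subgroup are Pcdh8, Pcdh10, Pcdh17, Pcdh18 and Pcdh19, several of which bind the WAVE actin-regulating complex. Pcdh8, an activity-regulated protocadherin that takes part in the internalisation of N-cadherin, was at 43.9 FPKM with the NS shRNA and 37.2 FPKM in the knockdown (-0.24). It is a short gene of 4.538 kb with 3 exons at chr14:79766775-79771312 (GRCm38), on the minus strand. Pcdh10, required for axon growth through the ventral forebrain, was at 37.4 and 36.9 FPKM (-0.02), and Pcdh17 at 10.3 and 9.78 FPKM (-0.07). Pcdh18 was at 7.64 and 6.71 FPKM (-0.19). Pcdh19, the X-linked gene of an epilepsy that affects mosaic carriers, was at 7.04 and 8.06 FPKM (0.20), opposite in direction to the other delta-2 genes.

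Among the 10 non-clustered protocadherins, 2 are outside the delta group as listed here. Pcdh15 encodes a component of the tip links of hair cells in the inner ear and was at 2.02 FPKM with the NS shRNA and 1.89 FPKM in the knockdown (-0.09). Pcdh20 was at 5.08 and 5.44 FPKM (0.10).

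**Figure D2:**
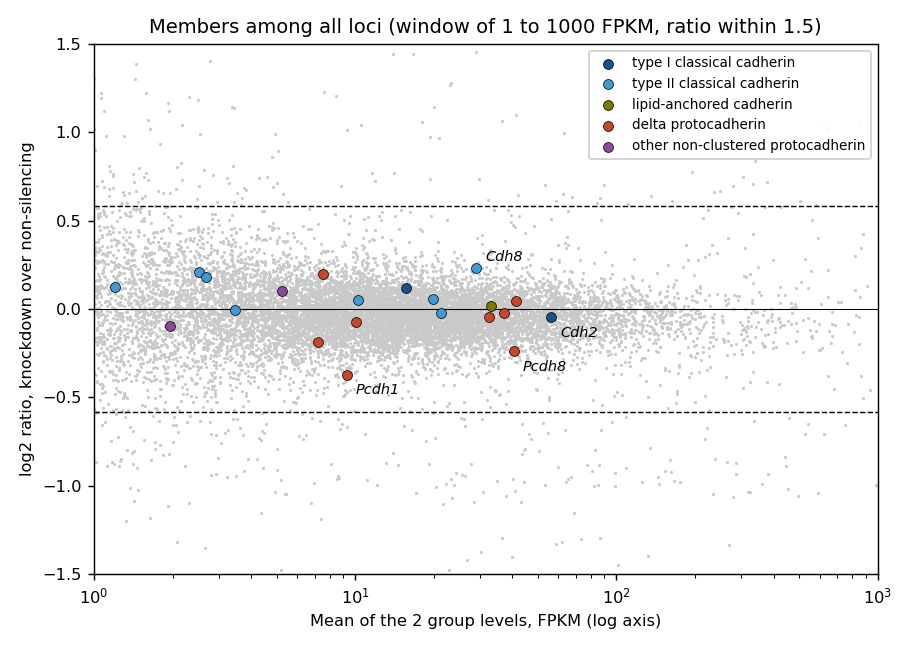
Log2 ratio of the knockdown over the non-silencing level (vertical axis) against the mean of both levels (FPKM, horizontal log axis), with loci of a mean of at least 1 FPKM in gray, the 21 members in colour by family and dashed lines at 1.5-fold; 147 of the 12622 loci lie outside the window drawn. All 21 members lie between the dashed lines, with Pcdh1 at -0.37 the lowest and Cdh8 at 0.23 the highest.

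The spread of the ratios depended on level. The 12 members of at least 10 FPKM had a median absolute log2 ratio of 0.0493, and the 9 members between 1 and 10 FPKM one of 0.182. The same values over all loci were 0.0881 and 0.128. Small RNA genes are annotated inside 6 member loci (Cdh8, Cdh11, Cdh13, Cdh18, Cdh20 and Pcdh9), whose ratios ran from -0.04 to 0.23, and reads of these small RNA genes are not separated from those of the host gene. No other protein-coding gene lies inside a member locus.

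Of the 23 matched members, 8 are on the study's list of genes predicted as NEUROD2 targets from ChIP-seq of other samples, namely Cdh4, Cdh6, Cdh11, Cdh13, Cdh22, Pcdh8, Pcdh9 and Pcdh19. These are 34.8% of the matched members, beside 5.90% of 17135 protein-coding genes matched by the same rule. At a mean of at least 1 FPKM the shares were 33.3% and 8.38%. Binding sites had been credited to the closest gene, and the part of gene length in these shares was not tested. Only the names on that list were read, without their scores and without separating developmental stages. The 7 of these with a mean of at least 1 FPKM had a median log2 ratio of 0.02, with 3 below 0 and 4 above. The 14 members not on that list also had a median of 0.02, with 7 on each side. Pcdh8 (-0.24) and Pcdh19 (0.20) were the farthest from 0 of these 7, in opposite directions.

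NEUROD proteins bind E-boxes, 6-base sites of the form CANNTG, which read the same way on both strands. In the RefSeq promoter windows (GRCm38.p6), the 250 bases upstream of a start were available for 17 of the 23 members. At least 1 CANNTG was present in 8 of the 17 (47.1%), beside 66.2% of 32851 promoters of the same length. The form CAGATG, or CATCTG on the other strand, was present in 0 of 17 members and in 14.4% of all promoters, and CAGCTG, another form of CANNTG, in 1 member (Cdh9) and in 13.0% of all promoters. The nearest windows of Cdh18 and Pcdh15 lie 487441 and 722525 bases from the annotated start, so that they belong to other start sites of those genes. The window of Cdh10, which holds 4 E-boxes, lies 1382 bases from the annotated start. That of Cdh7 lies 469 bases away, and the remaining windows lie at most 159 bases away. The windows of Cdh8 and Pcdh8, the members of at least 1 FPKM with the highest and the lowest ratio among those with a window, and of Cdh9 are shown 5′ to 3′ on the strand of the gene, with every CANNTG in capitals. They cover chr8:99416472-99416721 (minus strand), chr14:79771313-79771562 (minus strand) and chr15:16728665-16728914 (plus strand).
Cdh8: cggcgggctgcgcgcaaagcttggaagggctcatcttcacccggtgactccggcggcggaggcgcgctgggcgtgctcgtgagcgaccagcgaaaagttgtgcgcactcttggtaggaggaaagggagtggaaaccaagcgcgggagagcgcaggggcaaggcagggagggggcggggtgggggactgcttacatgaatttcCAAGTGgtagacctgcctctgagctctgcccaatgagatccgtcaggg
Pcdh8: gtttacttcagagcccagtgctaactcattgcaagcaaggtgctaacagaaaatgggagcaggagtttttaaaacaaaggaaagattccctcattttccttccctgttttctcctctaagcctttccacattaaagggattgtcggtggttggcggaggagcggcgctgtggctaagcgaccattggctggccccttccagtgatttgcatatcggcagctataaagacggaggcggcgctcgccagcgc
Cdh9: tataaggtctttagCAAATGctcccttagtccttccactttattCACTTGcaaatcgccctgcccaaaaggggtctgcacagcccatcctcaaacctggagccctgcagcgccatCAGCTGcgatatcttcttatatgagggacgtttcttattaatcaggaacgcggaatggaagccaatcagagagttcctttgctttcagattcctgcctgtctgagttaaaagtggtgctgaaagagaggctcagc
The window of Cdh8 holds 1 E-box, that of Cdh9 holds 3 and that of Pcdh8 holds 0. These are matches of letters, and whether NEUROD2 occupied them was not measured in these libraries. The study states that most NEUROD2 binding sites lay away from promoters, and sequence outside these windows was not searched.

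The 21 beta protocadherins could not be read 1 by 1. Their genes are annotated between positions 37294812 and 37524479 of chromosome 18, each 2.801 to 8.695 kb long, and in the table they fall in a single assembled locus, chr18:36930285-37841873 (mm10), of 911.589 kb. The annotated alpha, beta and gamma protocadherin genes on this span number 13, 22 and 21. No single beta gene reached an overlap above 0.00954 of the union, and 0 of 36 listed alpha and gamma genes was matched. The table has 27 rows with this position, 23 assigned here to the plus strand, on which the protocadherins are encoded, and 4 to the minus strand, and they carry no gene name.

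The plus-strand rows of this span were taken for the clustered protocadherins by position and strand alone, and can be read only as a whole. The 4 minus-strand rows are not on the strand of the protocadherins, and other genes on either strand of the span were not looked up. One plus-strand row holds 45 assembled transcripts and was at 203 FPKM with the NS shRNA and 261 FPKM in the knockdown (log2 ratio 0.36, the highest of the 27 rows). The other 22 plus-strand rows hold 1 transcript each, at most 14.6 FPKM with the NS shRNA. For the 21 of these with a mean of at least 1 FPKM, the ratios ran from -0.18 to 0.29 with a median of -0.00, 11 below 0 and 10 above, and in none was the higher level more than 25% above the lower. The most abundant of them was at 14.6 and 13.0 FPKM (-0.16) and the next at 10.7 FPKM in both groups (0.00). The row farthest above 0 was at 2.20 and 2.69 FPKM (0.29). The row left out for its low level was at 0.217 and 0.129 FPKM. The 4 minus-strand rows all lay below 0, the most abundant at 21.0 and 18.5 FPKM (-0.19).

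**Figure D3:**
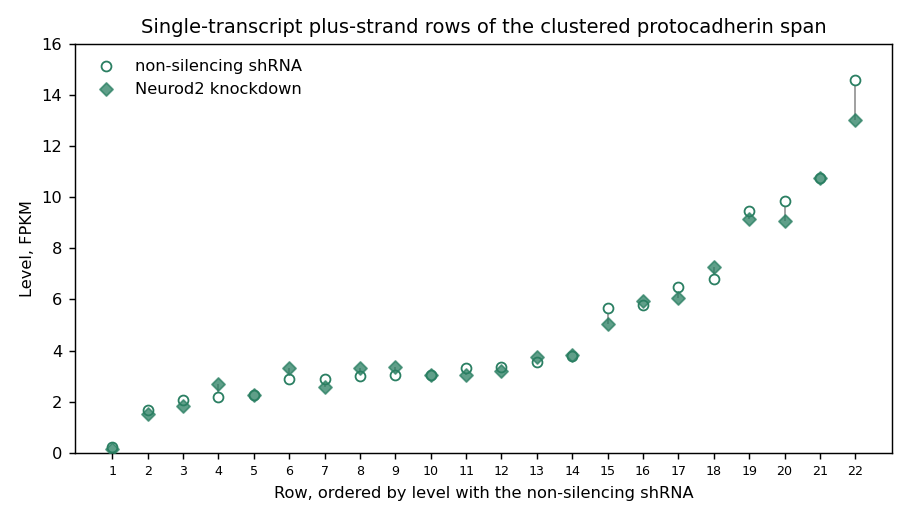
Level (FPKM, linear axis) of the 22 plus-strand rows of 1 transcript that share the position of the clustered protocadherin genes, ordered by their level with the non-silencing shRNA (open circles), with the Neurod2 knockdown as filled diamonds and no error since each point is 1 pooled group value. The diamonds follow the circles from 0.217 FPKM in the lowest row to 14.6 FPKM in the highest, some above and some below them.

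The proteins that work with cadherins were compared in the same way. Of 9 catenin genes, which connect cadherin tails to actin, 8 were found and 7 had a mean of at least 1 FPKM, with a median log2 ratio of 0.02 and none over 1.5-fold. Ctnnb1, which encodes beta-catenin, was at 400.0 FPKM with the NS shRNA and 392 FPKM in the knockdown. The catenins farthest from 0 were Jup (plakoglobin, 8.67 and 9.52 FPKM), Pkp4 (22.2 and 23.9 FPKM), Ctnna2 (61.99 and 60.3 FPKM) and Ctnnb1.

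Of 26 other genes of the cadherin superfamily, 23 were found and 11 had a mean of at least 1 FPKM. Their median log2 ratio was -0.15, with 9 below 0 and 2 above, and none differed by over 1.5-fold. Celsr1, an atypical cadherin of planar cell polarity, was at 14.8 FPKM with the NS shRNA and 11.3 FPKM in the knockdown (-0.38). Clstn2, a calsyntenin of the postsynaptic membrane, was at 39.0 and 31.2 FPKM (-0.32). Clstn3 was at 50.0 and 44.0 FPKM (-0.19) and Celsr3 at 23.5 and 20.7 FPKM (-0.18), in the same direction and smaller. The endothelial cadherin Cdh5 was listed at 0 in both groups.

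Of 15 genes that regulate the protocadherin array, such as cohesin subunits and chromatin modifiers, 14 were found, all but Ctcf. Of these, 11 had a mean of at least 1 FPKM with both values above 0. Their median log2 ratio was -0.01, and none differed by over 1.5-fold. The cohesin subunit Stag2 was farthest from 0, at 42.1 and 48.8 FPKM (0.21), followed by Dnmt1 (44.95 and 41.4 FPKM), Wiz (11.3 and 10.5 FPKM) and Smc1a (38.0 and 35.6 FPKM). A lower row at the position of Dnmt1, marked as not tested, was listed at 0 and 31.03 FPKM. For Rest, a repressor of neuronal genes, 2 rows share the position of the gene. The higher was listed at 44.5 FPKM with the NS shRNA and at 0 in the knockdown, and the other was at 3.10 and 3.47 FPKM, so no level or difference of Rest can be read from them. The cells of Nipbl could not be read.

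Of 20 genes of cadherin cleavage and protocadherin signalling, 19 were found and 18 had a mean of at least 1 FPKM with both values above 0, with a median log2 ratio of -0.03 and none over 1.5-fold. The focal adhesion kinase relative Ptk2b was at 4.31 and 3.74 FPKM (-0.20) and the kinase Fyn at 86.9 and 77.8 FPKM (-0.16). Abi2, a subunit of the WAVE complex, was at 74.4 and 81.2 FPKM (0.13). The phosphatase gene Ptprf also has 2 rows. The higher, marked by the authors as not tested, was listed at 0 with the NS shRNA and at 197 FPKM in the knockdown, while the other was at 29.95 and 29.02 FPKM, so no difference of Ptprf can be read from them.

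**Figure D4:**
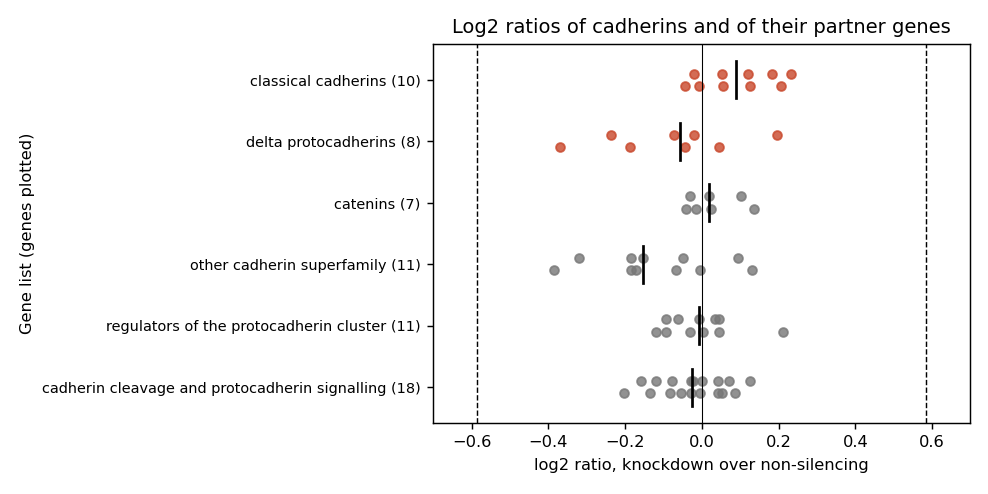
Log2 ratio of the knockdown over the non-silencing level (horizontal axis) for the classical cadherins and delta protocadherins (red) and 4 lists of partner genes (gray), 1 point per gene with a mean of at least 1 FPKM and both values above 0, black bars for the median and dashed lines at 1.5-fold. The medians lie between -0.15 for the other cadherin superfamily genes and 0.09 for the classical cadherins, and no point lies beyond a dashed line.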

How the data were processed

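RNA-seq of 6 libraries was used, 2 with the non-silencing shRNA and 4 with Neurod2 knockdown. TopHat (mapping to mm10), Cufflinks (assembly) and Cuffdiff (comparison of pooled groups) were run by the authors, in versions not given in the sources used here. Each locus of the deposited table has 1 FPKM value per group and locus, scaled by the authors to transcript length and library size. The authors' own fold change (log2), test statistic, p-value and q-value were not reported, and the log2 column served only to check restored cells. A spreadsheet had turned many cells into times or dates, as hours and minutes. The possible numbers were listed and those kept whose ratio gave the deposited log2 fold change within 2e-05, which restored 4939 rows, 7 of them members, and left 92 unreadable. In simulated cells of this comparison (4483 rows), 99.7% were restored correctly, 0.290% not resolved and 0 restored wrongly. The simulated cells were altered by the same rule that the restoring assumes, with the log2 value left intact. These shares therefore do not test that rule.

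Loci were named by overlap with GENCODE M21 genes (GRCm38) of at least 0.5 of the union, on the strand read from the order of the locus identifiers, which matched the gene strand in 99.96% of 13572 loci with 1 gene. Where several rows had the position of a member (6 members), the row chosen was also the highest of them. A log2 ratio is that of the deposited group levels, with no pseudocount. Differences over 1.5-fold, among loci with a mean of at least 1 FPKM and both levels above 0, were counted with no test, and no single library could be left out. Every member was named, and in each other list the genes over 1.5-fold or else up to 4 with the largest log2 ratio, and in marker lists those over 1.5-fold and the most abundant. The values of 1 gene that this rule named are not reported here. Members and lists were chosen with earlier results of these data known. Python 3.11.15 with pandas 2.3.3, numpy 2.4.6 and matplotlib 3.10.9 was used.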

Additional observations from a re-analysis of the deposited data

How the results depend on the processing

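Counts of members over 1.5-fold lower and higher stayed at 0 with 0.1 or 1 FPKM added to both levels. They stayed so with a minimum mean of 0.1 or 5 FPKM, and with an overlap of at least 0.8 or (chosen after seeing the data) 0.4. The same held without restored rows, and without members whose locus holds a small RNA gene, another protein-coding gene or a further row. It also held with rows marked OK only, and centred on the median of all loci (-0.03). Of these settings, only the minimum mean of 0.1 FPKM, which adds Cdh22, and the overlap of 0.4, which adds Cdh12, could have raised a count of 0. The centring, on a median of -0.03, could not bring ratios of -0.37 to 0.23 past 1.5-fold. Added FPKM only draws a ratio toward 0, and the other settings add no member. At the threshold of 25% above the lower level, 1 member was lower (Pcdh1). At 2-fold none was, which the stricter threshold makes certain. The median log2 ratio ranged from -0.00 to 0.05 for all members and from 0.05 to 0.12 for the classical cadherins. That of the delta protocadherins ranged from -0.24 to -0.03. It was -0.24 on the 3 members left without those whose locus holds such a gene or row, where fewer genes are the only change. None of 185 single-member values moved by 0.1 or more. Most of these could not move, since a setting that only leaves members out keeps the value of each member that stays. Only the added FPKM and the centring altered single values, and the centring shifts all of them by the same amount. No median could be computed for the beta protocadherins. No paired analysis was possible because the table holds 1 pooled value per group, and for the same reason no replicate could be left out. The limits are the absent spread between libraries and the unknown depth, which bear most on members under 10 FPKM.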

Other observations

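Cdh12, a type II cadherin, was the only cadherin not matched. Its annotated span of 1140.27 kb on chromosome 15 was covered by separate assembled pieces. The piece from 20449190 to 20979940 overlapped it by 0.465 of the union and was at 0.207 FPKM with the NS shRNA and 0.170 FPKM in the knockdown. The piece from 21111452 to 21589533 overlapped it by 0.419 and was at 4.75 and 5.37 FPKM (log2 ratio 0.18). A row at the first position assigned to the opposite strand was at 3.93 and 4.75 FPKM (0.27).

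Rows at the position of a member but assigned to the opposite strand were found for 6 matched members. At Pcdh7 the opposite-strand row was at 3.27 FPKM with the NS shRNA and 2.39 FPKM in the knockdown (-0.45), while Pcdh7 itself was at 40.5 and 41.7 FPKM. At Pcdh17 it was at 1.26 and 1.68 FPKM (0.41), while Pcdh17 was at 10.3 and 9.78 FPKM. The opposite-strand rows at Cdh8 were at 1.04 and 1.05 FPKM and at 0.291 and 0.392 FPKM, and those at Pcdh10 (0.633 and 0.335 FPKM), Cdh18 (0.201 and 0.226 FPKM) and Pcdh19 (0.0564 and 0.0625 FPKM) were under 1 FPKM in both groups. Whether the reads were counted by strand is not given in the sources used here, and reads of a gene and of an opposite-strand transcript cannot be told apart without it.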
